A study of Mus musculus with 6 samples.

Results

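Prox1 and 9 genes of the lymphatic endothelium were examined in whole pancreas of mice that overexpress Prox1 in the endocrine lineage. The members were the genes Prox1, Sox18, Nr2f2, Foxc2, Vegfc, Flt4, Lyve1, Pdpn, Reln and Mmrn1. Probe sets were taken where the array annotation gave 1 gene symbol and that symbol was a member, which gave 23 of 45101 probe sets and 10 of 18193 genes. All 10 members were measured, 7 of them by more than 1 probe set. Of the 23 probe sets, 11 read above the median of all probe sets (4.39 on the log2 scale), and so did the brightest probe set of 8 of the 10 genes. Foxc2 and Mmrn1 read below it.

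Prox1-OE mice carried Jojo-Prox1 together with Ngn3-cre (3 arrays) and the controls carried Ngn3-cre alone (3 arrays). All were of the NMRI strain at postnatal day 15, so the Cre driver, which acts in progenitors of the endocrine cells, was shared by both groups. RNA of the whole pancreas was hybridised, 1 sample per array. Lymphatic endothelium and islets are minor parts of that tissue, and in such bulk samples fewer cells of a type and less RNA per cell cannot be told apart.

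Prox1 is a homeobox transcription factor needed to make and keep lymphatic endothelial identity. In mouse embryos Sox18 and Nr2f2 act in vein endothelium to switch Prox1 on, and Prox1 in turn supports expression of Flt4, the receptor through which the growth factor VEGF-C drives lymphatic growth. In the pancreas Prox1 is also made outside lymphatic vessels, in embryonic progenitors and later in duct and some endocrine cells.

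RefSeq (GRCm38.p6) gave 8 promoter windows for 7 of the members, each 300 bases long from 250 bases before the transcription start. Shown are the window of Prox1 at its more upstream start and the windows that held any motif searched here, those of Mmrn1, Reln and Pdpn. Each is given 5′ to 3′ on the strand of the gene. Capitals mark 3 motifs searched on both strands, the SOX motif AACAAT, the nuclear receptor hexamer AGGTCA and the ETS core CCGGAA, which did not overlap each other here. These were held by 10.7%, 16.3% and 14.9% of all 32851 windows.
Mmrn1, chr6:60944067-60944366, plus strand: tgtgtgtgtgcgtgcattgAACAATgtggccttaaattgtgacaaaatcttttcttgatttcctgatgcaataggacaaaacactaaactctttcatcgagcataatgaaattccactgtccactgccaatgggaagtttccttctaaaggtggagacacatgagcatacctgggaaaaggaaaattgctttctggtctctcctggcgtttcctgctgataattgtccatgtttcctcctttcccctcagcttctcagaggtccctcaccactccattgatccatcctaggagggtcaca
Reln, chr5:22344656-22344955, minus strand: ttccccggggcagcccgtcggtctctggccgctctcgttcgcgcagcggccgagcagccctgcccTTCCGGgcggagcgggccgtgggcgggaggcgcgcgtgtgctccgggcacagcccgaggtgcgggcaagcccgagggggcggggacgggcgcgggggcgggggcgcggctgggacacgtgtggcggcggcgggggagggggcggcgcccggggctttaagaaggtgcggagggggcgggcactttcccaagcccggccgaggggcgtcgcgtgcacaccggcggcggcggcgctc
Pdpn, chr4:143299515-143299814, minus strand: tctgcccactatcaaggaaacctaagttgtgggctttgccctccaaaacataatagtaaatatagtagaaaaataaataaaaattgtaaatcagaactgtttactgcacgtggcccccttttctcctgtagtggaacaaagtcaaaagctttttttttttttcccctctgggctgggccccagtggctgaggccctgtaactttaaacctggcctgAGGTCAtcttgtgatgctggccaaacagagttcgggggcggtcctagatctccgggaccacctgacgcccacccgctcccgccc
Prox1, chr1:190170778-190171077, minus strand: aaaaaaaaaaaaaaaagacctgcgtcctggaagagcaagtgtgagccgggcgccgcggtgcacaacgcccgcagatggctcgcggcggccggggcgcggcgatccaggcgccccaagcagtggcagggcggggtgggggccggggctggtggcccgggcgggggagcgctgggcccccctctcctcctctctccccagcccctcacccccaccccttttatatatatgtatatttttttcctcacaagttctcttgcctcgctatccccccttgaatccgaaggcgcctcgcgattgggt
With the start base as position 0, AACAAT began at position -231 of Mmrn1, CCGGAA was read on the opposite strand at position -185 of Reln, and AGGTCA began at position -34 of Pdpn. Neither window of Prox1, nor those of Nr2f2, Vegfc and Flt4, held these letters. The base composition of the windows differed widely, with 44.3% G and C in Mmrn1 and 80.7% in Reln.

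Prox1 itself had similar values in both genotypes. The brightest of its 3 probe sets read 5.30, 4.98 and 5.31 on Prox1-OE replicates 1, 2 and 3 and 5.61, 4.90 and 4.90 on control replicates 1, 2 and 3. The highest and the lowest array were both controls, and the groups overlapped. The difference, Prox1-OE minus control, was 0.06 ± 0.20 on the log2 scale (SE, n = 3 each), with a 95% interval of -0.39 to 0.52 (limma adjusted p = 0.971). An excess above 0.52 on this scale thus lay outside the interval.

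The 3 probe sets of Prox1 did not order the arrays alike. Probe set 1457432_at read 3.69, 3.88 and 3.64 in Prox1-OE and 3.53, 3.54 and 4.23 in control, so its highest array was control replicate 3, among the 2 lowest arrays of the brightest probe set. Probe set 1421336_at stayed between 2.80 and 2.94 on all arrays, at percentile 4.26 of all probe sets. Over the 6 arrays the brightest probe set had Pearson r = -0.57 with the first of these (exact permutation p = 0.225, rho = -0.66 with p = 0.175) and r = 0.56 with the other (exact permutation p = 0.242, rho = 0.55 with p = 0.272). Whether any of the 3 lies within the transcript of the transgene was not tested, so these values do not check the genotype labels.

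**Figure D1:**
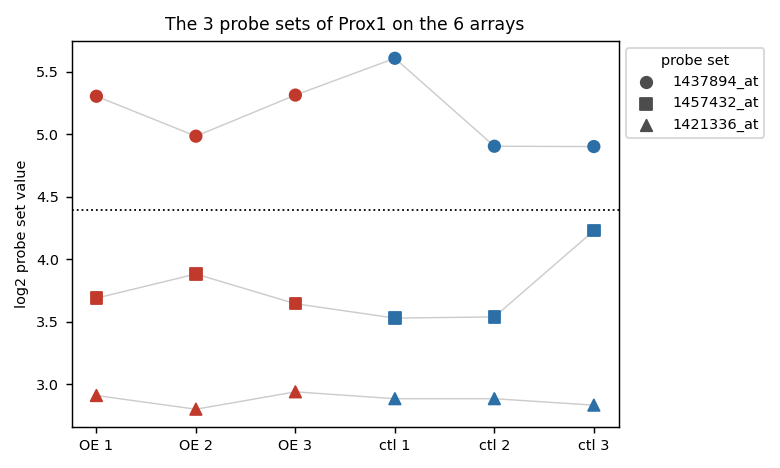
Log2 values (y axis) of the 3 probe sets of Prox1 on the 6 arrays (x axis; OE, Prox1-OE, red; ctl, control, blue), with a marker shape per probe set and a dotted line at the median of all probe sets, 4.39. The brightest probe set peaks on control replicate 1 (5.61) and the next on control replicate 3 (4.23).

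Across the 10 members no gene passed the test over all 18193 genes, where 5 genes did (0.0275%). The adjusted p-values of the members ran from 0.657 to 0.971 by limma. All 10 differences were positive, as were 46.2% of all genes, and the median difference was 0.41 over the members and -0.01 over all genes. At an unadjusted p under 0.05, 4 members were higher in Prox1-OE (Vegfc, Nr2f2, Pdpn and Lyve1) and none lower, against 2.94% of genes higher and 3.7% lower. For 2 members, Vegfc and Nr2f2, all Prox1-OE arrays read above all controls, as for 5.05% of genes. Without Prox1-OE replicate 1 the median of the members was 0.12, with 8 of 10 positive.

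**Figure D2:**
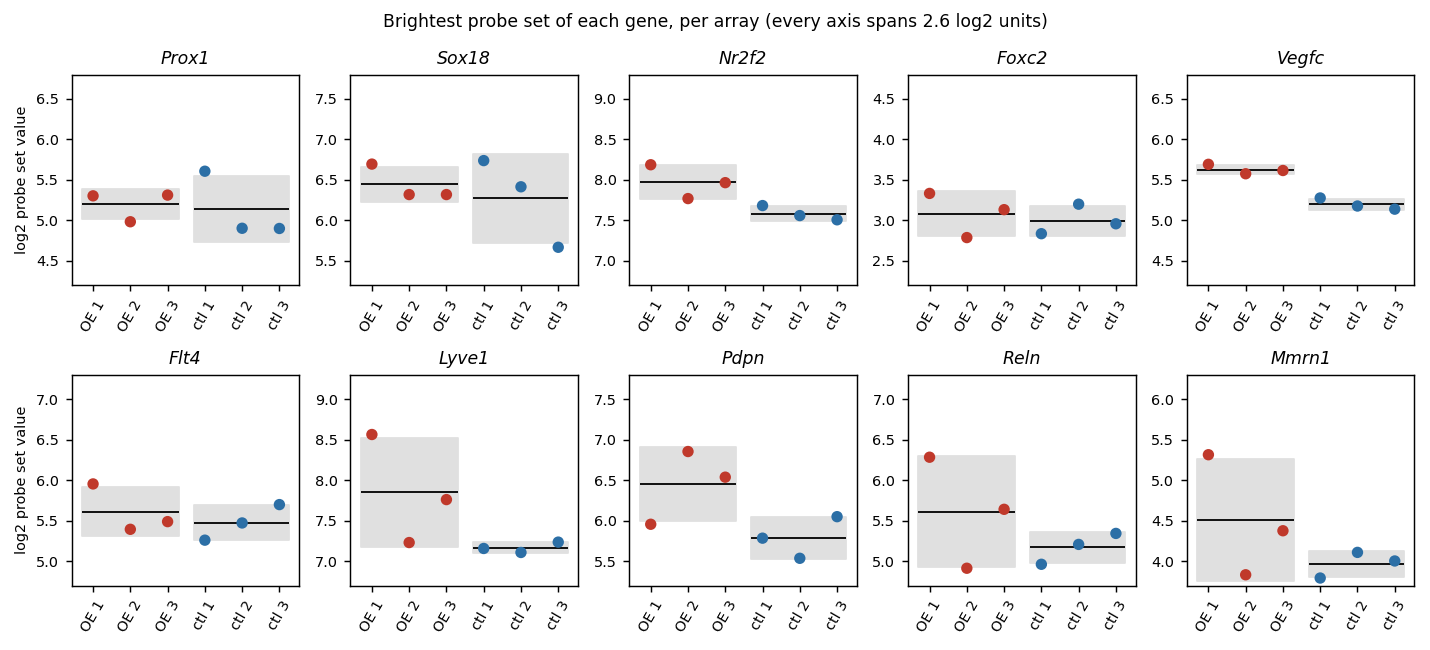
Log2 value (y axis) of the brightest probe set of each of the 10 genes on each array (x axis; OE, Prox1-OE, red; ctl, control, blue), with the group mean as a line and 1 SD (n = 3) as a grey band. The groups separate for Vegfc and Nr2f2, and for Lyve1, Reln and Mmrn1 Prox1-OE replicate 1 is highest and replicate 3 next.

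Among the transcription factors, Nr2f2, an orphan nuclear receptor of vein, lymphatic and mesenchymal cells, was measured by the most probe sets. Its brightest read 8.19, 7.77 and 7.97 in Prox1-OE and 7.68, 7.56 and 7.51 in control. Every Prox1-OE array lay above every control, by a margin of less than 0.1 at the closest pair. The difference was 0.39 ± 0.12 (SE, limma adjusted p = 0.690 and unadjusted p = 0.0116). All 6 probe sets of Nr2f2 had positive differences, from 0.04 to 0.48, and the groups did not overlap on 3 of them. Without Prox1-OE replicate 1 the difference was 0.28 ± 0.11, and 0.19 ± 0.13 with the mean of 9 B cell genes as a covariate.

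Sox18, a SOX factor of blood and lymphatic endothelium, followed another order. It read 6.70, 6.32 and 6.32 in Prox1-OE and 6.74, 6.42 and 5.67 in control, and the controls spanned a wider range than Prox1-OE. Its difference was 0.17 ± 0.25 (limma adjusted p = 0.920), and -0.13 without control replicate 3. That control was also the lowest array for Pecam1, an adhesion protein of all endothelium, which read 6.01, 5.81 and 5.58 in Prox1-OE and 5.93, 5.76 and 4.69 in control. Whether the make-up of that control sample sets the Sox18 values was not tested. Foxc2, a factor of lymphatic valves, read 2.79 to 3.33 in Prox1-OE and 2.84 to 3.20 in control, at percentile 9.76 of all probe sets. Its difference was 0.09 ± 0.16 (limma adjusted p = 0.939).

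Vegfc, the ligand of Flt4, had the smallest p of the members. Its brightest probe set read 5.69, 5.58 and 5.62 in Prox1-OE and 5.28, 5.18 and 5.14 in control. The spread within each group was small beside the gap between them (SD 0.06 in Prox1-OE and 0.07 in control). The difference was 0.43 ± 0.09 (SE, 95% interval 0.23 to 0.63), with an unadjusted limma p of 0.00103 and an adjusted p = 0.657. It ranged from 0.40 to 0.47 when any 1 array was left out and was 0.37 ± 0.12 with the B cell covariate.

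This probe set, 1439766_x_at, is of a class that can bind more than 1 transcript, and the other probe sets of Vegfc gave smaller differences. Probe set 1440739_at read 4.55, 4.04 and 4.42 in Prox1-OE and 4.57, 4.19 and 3.74 in control (difference 0.17 ± 0.21). Probe set 1419417_at read 4.62, 4.06 and 4.16 in Prox1-OE and 4.21, 4.21 and 4.02 in control (difference 0.13 ± 0.15). On both the groups overlapped, and both read below the median of all probe sets.

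Flt4, the VEGF-C receptor of lymphatic endothelium, showed no such gap. Its brightest probe set read 5.95, 5.39 and 5.49 in Prox1-OE and 5.26, 5.47 and 5.70 in control, a difference of 0.14 ± 0.17 (limma adjusted p = 0.902). The other probe set stayed between 5.12 and 5.27 on all arrays. Without Prox1-OE replicate 1 the sign of the Flt4 difference turned (-0.04).

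Lyve1, a hyaluronan receptor of lymphatic endothelium that some tissue macrophages and sinus endothelia also carry, was measured by 2 probe sets. The brightest read 8.56, 7.23 and 7.76 in Prox1-OE, against 7.16, 7.11 and 7.24 in control. Prox1-OE replicates 1 and 3 lay above all controls, while replicate 2 lay among them. The difference was 0.68 ± 0.28 (SE, limma adjusted p = 0.740 and unadjusted p = 0.0415). Its other probe set had nearly the same differences, with 7.37, 6.30 and 6.58 in Prox1-OE and 6.07, 6.21 and 5.96 in control (0.67 ± 0.24). Without Prox1-OE replicate 1 the difference of the brightest probe set was 0.33 ± 0.16.

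The secreted proteins Reln and Mmrn1 ordered the Prox1-OE arrays as Lyve1 did. Reln encodes reelin, a large matrix glycoprotein that lymphatic endothelium releases, and read 6.28, 4.91 and 5.64 in Prox1-OE and 4.96, 5.21 and 5.34 in control. Mmrn1 encodes multimerin 1, a matrix protein of platelets and endothelium, and read 5.31, 3.83 and 4.38 in Prox1-OE and 3.79, 4.11 and 4.003 in control. For both, Prox1-OE replicate 1 was highest and replicate 3 next, and replicate 2 was within or below the controls. Their differences were 0.44 ± 0.30 and 0.54 ± 0.32 (limma, with adjusted p = 0.803 for Reln and 0.783 for Mmrn1), and without Prox1-OE replicate 1 they were 0.11 ± 0.22 and 0.14 ± 0.18. The other probe sets of Reln and Mmrn1 read under 3 on every array, near the floor of the arrays, with differences of -0.03 and -0.13.

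Pdpn, a mucin-like membrane protein of lymphatic endothelium that fibroblastic reticular and mesothelial cells also carry, had its own order. It read 5.96, 6.85 and 6.54 in Prox1-OE and 5.78, 5.54 and 6.05 in control. Here Prox1-OE replicate 2 was highest and replicate 1, the highest array of 7 other members, lay below control replicate 3. The difference was 0.66 ± 0.23 (SE, limma adjusted p = 0.693 and unadjusted p = 0.0187), and it was 0.91 ± 0.17 without Prox1-OE replicate 1.

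**Figure D3:**
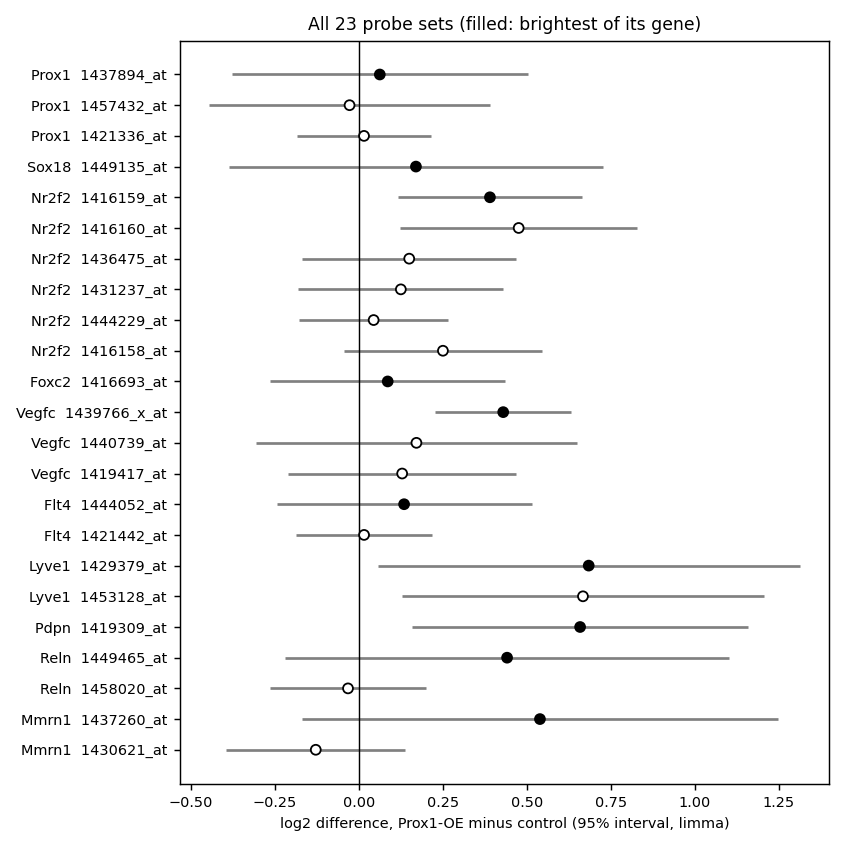
Difference, Prox1-OE minus control, on the log2 scale (x axis) with its unadjusted 95% interval from limma for each of the 23 probe sets (y axis), the brightest of each gene filled. The differences were positive for 20 of 23 probe sets, and those of Vegfc, Reln and Mmrn1 depend on the probe set.

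The differences of 20 of the 23 probe sets were positive, as were 45.1% of all probe sets. Over all probe sets fitted singly, none of the 23 passed by limma (smallest adjusted p = 0.772), as 0.0111% of 45037 probe sets did. At an unadjusted p under 0.05, 6 were higher and none lower, against 2.65% of probe sets higher. The groups did not overlap, with Prox1-OE above, for 5 of the 23 and for 4.6% of all probe sets. Probe sets of 1 gene share their transcript and are not independent.

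The array order that Lyve1, Reln and Mmrn1 shared, with Prox1-OE replicate 1 highest, replicate 3 next and the other 4 arrays below, also held for Nr2f2 and Vegfc. It was read from those 3 members, so the count of 5 of 10 is a description. The order was found for 5 of the 40 further genes of lymphatic development and function and for 5.36% of all genes. Prox1-OE replicate 1 was the highest array for 7 of 10 members and for 18.9% of all genes. Prox1 and Sox18 were instead highest on control replicate 1.

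The same order held for 4 of 9 B cell genes (Ms4a1, Cd79b, Cd22 and Fcrla), for 1 of 4 lymph node stroma genes (Glycam1) and for 3 of 8 fibroblast genes (Pdgfra, Dcn and Lum). Glycam1, a mucin of the high endothelial vessels of lymph nodes, read 8.49, 3.26 and 6.83 in Prox1-OE and 3.30, 3.49 and 3.72 in control. Ms4a1, a surface protein of B cells, read 7.80, 4.79 and 6.35 in Prox1-OE and 4.25, 4.04 and 3.86 in control. The mean level of 9 B cell genes ran from 3.95 to 4.80 in Prox1-OE and from 3.86 to 3.92 in control, with 6 of 9 differences positive. Cd79a, Pax5 and Blk had negative differences (-0.07, -0.10 and -0.01), and the median over the list was 0.11. The rise of the mean rested largely on Ms4a1 (2.26), Cd22 (0.79) and Cd79b (0.64). The mean level of 4 lymph node stroma genes ran from 5.40 to 6.58 in Prox1-OE and from 4.93 to 5.04 in control. All 4 differences were positive, as were 46.2% of all genes. On Prox1-OE replicate 2 this mean rested on Cxcl13 (7.59, against 5.46 to 5.77 in control). There Glycam1 was at its lowest and Madcam1 (3.71) lay within the controls (3.62 to 4.26).

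The B cell mean itself had that order, with 4.80, 3.95 and 4.23 on Prox1-OE replicates 1, 2 and 3 and 3.86 to 3.92 in control. A covariate of the same order takes up such differences largely by its shape, so this fit does not test B cell content. With the B cell mean as a covariate, 3 of the 5 members of that order had differences close to 0 or negative and the other 2 had positive ones. Lyve1 differed by 0.01 ± 0.12, Reln by -0.23 ± 0.17 and Mmrn1 by -0.21 ± 0.15, whereas Nr2f2 differed by 0.19 ± 0.13 and Vegfc by 0.37 ± 0.12 (limma adjusted p = 0.998 for each). Of the members without that order, Flt4 differed by -0.17 ± 0.16 (limma adjusted p = 0.998). Pdpn differed by 1.10 ± 0.20 in that fit (limma adjusted p = 0.939).

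**Figure D4:**
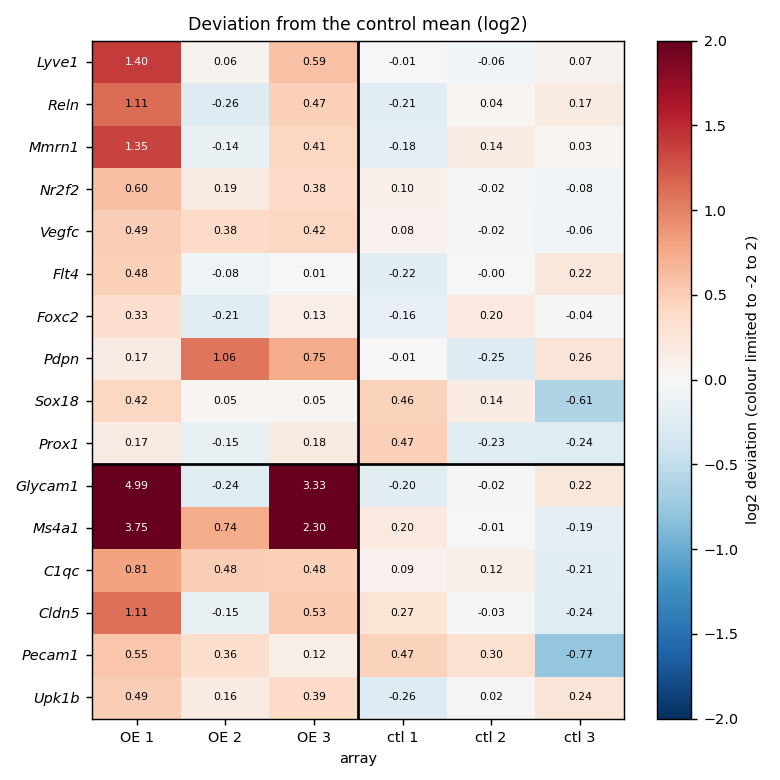
Log2 deviation of each array (columns; OE, Prox1-OE; ctl, control) from the control mean for the 10 members (above the line) and for markers of lymph node vessels (Glycam1), B cells (Ms4a1), macrophages (C1qc), endothelium (Cldn5, Pecam1) and mesothelium (Upk1b), with colours limited to -2 to 2. Lyve1 (1.40), Reln (1.11) and Mmrn1 (1.35) are highest on Prox1-OE replicate 1, as are Glycam1 (4.99) and Ms4a1 (3.75). The markers shown all had positive differences. Genes of the same lists that are not shown had negative ones, among them Vwf (-0.31, endothelium), Muc16 (-0.24, mesothelium), C1qa (-0.13, macrophages) and Pax5 (-0.10, B cells).

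Of 10 genes of macrophages, some of which carry Lyve1, 9 had positive differences, and their mean level ran from 6.35 to 6.87 in Prox1-OE and from 6.03 to 6.20 in control. None passed over all genes. C1qc, a chain of complement C1q, read 6.74, 6.41 and 6.40 in Prox1-OE and 6.02, 6.05 and 5.72 in control. All its Prox1-OE arrays lay above all controls, as on the dimmer probe set of Lyve1 but not on its brightest. This held for 3 of the 10 macrophage genes and for 5.05% of all genes. C1qa, another chain of C1q, went the other way, with a difference of -0.13 and its highest value on control replicate 1 (8.51). Csf1r, the receptor of macrophage colony-stimulating factor, read 9.57, 8.50 and 8.88 in Prox1-OE and 8.63, 8.35 and 8.32 in control. It had the array order of Lyve1, as did Adgre1 and Timd4 and no other of the 10 (3 of 10). The part of macrophages in the Lyve1 values was not tested.

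Genes of an endothelial list were on average highest on control replicate 1 (6.44) and next on Prox1-OE replicate 1 (6.41). Among them are genes of all endothelium, such as Pecam1, so blood vessels were not measured apart from lymphatic ones. Of 12 measured, 8 had positive differences with a median of 0.03, and their mean level ran from 6.14 to 6.41 in Prox1-OE and from 5.83 to 6.44 in control. Cldn5, a tight junction protein of endothelium, had the order of Lyve1, with 7.37, 6.12 and 6.79 in Prox1-OE and 6.53, 6.23 and 6.03 in control (difference 0.50 ± 0.28, limma adjusted p = 0.777). For the other cells that carry Pdpn, 5 of 6 mesothelial genes had positive differences, with mean levels of 5.38 to 5.54 in Prox1-OE and 4.76 to 5.80 in control. Of these, Upk3b, Lrrn4, Wt1 and Muc16 were highest on control replicate 3, unlike Pdpn. All 8 fibroblast genes had positive differences (median 0.21), as did 46.2% of all genes, none past the test. Each of the 8 was highest on Prox1-OE replicate 1, the Prox1-OE array with the lowest Pdpn value (5.96). The part of mesothelial or fibroblast cells in the Pdpn values was not tested.

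Further genes of lymphatic development and function had a median difference near 0. Of 40 measured, 25 had positive and 15 negative differences (median 0.05), and none passed over all genes by limma, with 2 higher and 1 lower at an unadjusted p under 0.05. This compares with 6.65% of all genes in either direction at that threshold.

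Among ligands of the list, Angpt1, a ligand of the endothelial receptor Tek, read 5.94, 6.53 and 6.35 in Prox1-OE and 6.54, 6.60 and 6.92 in control. Each control lay above each Prox1-OE array, as for 7.02% of all genes, and the difference was -0.41 ± 0.17 (limma adjusted p = 0.740). Vegfd, the other ligand of Flt4, differed by 0.17 ± 0.16, and Ccbe1 and Adamts3, needed for the processing of VEGF-C, by -0.03 ± 0.11 and -0.03 ± 0.16. For each of these the groups overlapped, unlike for the brightest probe set of Vegfc.

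Among receptors, Kdr, the other VEGF-C receptor and the main VEGF receptor of blood vessels, read 7.31, 7.08 and 7.25 in Prox1-OE and 7.04, 7.01 and 6.81 in control. The groups did not overlap, with a difference of 0.26 ± 0.11 (limma adjusted p = 0.739). Prox1-OE lay wholly above control for 2 of the 40 genes of this list and for 5.05% of all genes. Nrp2, a co-receptor of VEGF-C, differed by -0.11 ± 0.09 and Itga9, an integrin of lymphatic valves, by -0.24 ± 0.17.

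Of 5 genes grouped in the list as chemokine receptors or scavengers, with Ptx3 counted among them, 4 had positive differences (46.2% of all genes did). Of these 5, 0 passed the test. Ackr3, a scavenger receptor of chemokines and adrenomedullin, differed by 0.36 ± 0.16 and Ackr4, which takes up chemokines in lymphatic and stromal cells, by 0.22 ± 0.12. Stab2, a hyaluronan receptor of sinus endothelium in lymph nodes, liver and spleen, read 4.93, 3.51 and 4.14 in Prox1-OE and 3.73, 3.82 and 3.78 in control. It ordered the arrays as Lyve1, Reln and Mmrn1 did. Ackr2, another chemokine scavenger, differed by 0.07 ± 0.18 and Ptx3, a secreted pentraxin, by -0.11 ± 0.12. Lcp2 and Syk, of the platelet signalling that keeps blood out of lymphatic vessels but also of leukocytes, differed by 0.40 ± 0.17 and 0.24 ± 0.13 (limma, with adjusted p = 0.748 for Lcp2 and 0.773 for Syk).

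The relation of the Prox1 signal to the lymphatic genes was examined over the 6 arrays, a design in which the adjusted test could hardly call any gene. Correlations of the brightest Prox1 probe set were computed with 18192 other genes, with exact two-sided permutation p-values over 720 orders adjusted over all of them. The smallest possible permutation p was 0.0014 by Pearson and 0.0028 by Spearman. None of the 18192 passed by Pearson's r or Spearman's rho (0.0% called), and 787 and 582 had an unadjusted p under 0.05 (4.33% by Pearson). By Pearson, at least 506 genes would have had to pass together for any to pass. Only 27 had the smallest possible p, so the absence of calls says little. None of the 9 other members was among the 787. Positive r was found for 6 of 9 members and for 51.7% of all genes, with a median of 0.17 over the members and 0.02 over all genes. The 6 values of Prox1 spanned 0.71 on the log2 scale, and the arrays of both genotypes enter each r.

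Sox18 had the highest r of the members, 0.70 (exact permutation p = 0.0917, rho = 0.67 with p = 0.156), and r was 0.40 without control replicates 1 and 3, the 2 arrays farthest from the Prox1 median. Its direction depended on the Prox1 probe set, with r = -0.87 for probe set 1457432_at and -0.038 when the mean of all probe sets stood for each gene. Nr2f2 came next with r = 0.47 (exact permutation p = 0.360, rho = 0.60 with p = 0.242). For Lyve1 r was 0.31 (exact permutation p = 0.586, rho = 0.14 with p = 0.803) and for Vegfc 0.33 (exact permutation p = 0.565, rho = 0.60 with p = 0.242). Without those 2 arrays, r over the other 4 was 0.92 for Nr2f2, 0.86 for Lyve1 and 0.79 for Vegfc, and without control replicate 1 alone it was 0.94, 0.87 and 0.84. Prox1 was highest on that control and these genes were not. The 4 arrays are the Prox1-OE arrays and control replicate 2 (Prox1 4.903), kept by a very small margin over control replicate 3 (4.901). Prox1 read 5.30 and 5.31 on Prox1-OE replicates 1 and 3, and 4.98 and 4.90 on the others. So r there mainly set Prox1-OE replicates 1 and 3 against the others, as in the array order already read from Lyve1, Reln and Mmrn1. Over the 4 arrays r of the list genes ran from -0.999 (Sox17) to 0.98 (Madcam1). Glycam1 had 0.94 and the B cell gene Ms4a1 0.93, while Pax5, another B cell gene, had -0.41. High r over these 4 arrays was thus not particular to the members, and its share over all genes was not computed. With the group means removed and all 6 arrays kept, r was 0.67 for Nr2f2, 0.32 for Lyve1 and 0.87 for Vegfc.

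The remaining members had r near or below 0.2. Mmrn1 had r = 0.17 (exact permutation p = 0.789, rho = -0.09 with p = 0.919) and Reln r = 0.16 (exact permutation p = 0.757, rho = 0.03 with p = 1.0). Flt4 had r = -0.20 (exact permutation p = 0.669, rho = -0.37 with p = 0.497), Pdpn r = -0.10 (exact permutation p = 0.811, rho = -0.03 with p = 1.0) and Foxc2 r = -0.03 (exact permutation p = 0.965, rho = -0.09 with p = 0.919). Over the 4 arrays left without control replicates 1 and 3, r was 0.74 for Mmrn1, 0.82 for Reln, 0.61 for Flt4, 0.20 for Pdpn and 0.47 for Foxc2. The adjusted p by Pearson (exact permutation) was 0.999 for 8 of the 9 members and 0.9998 for Foxc2.

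**Figure D5:**
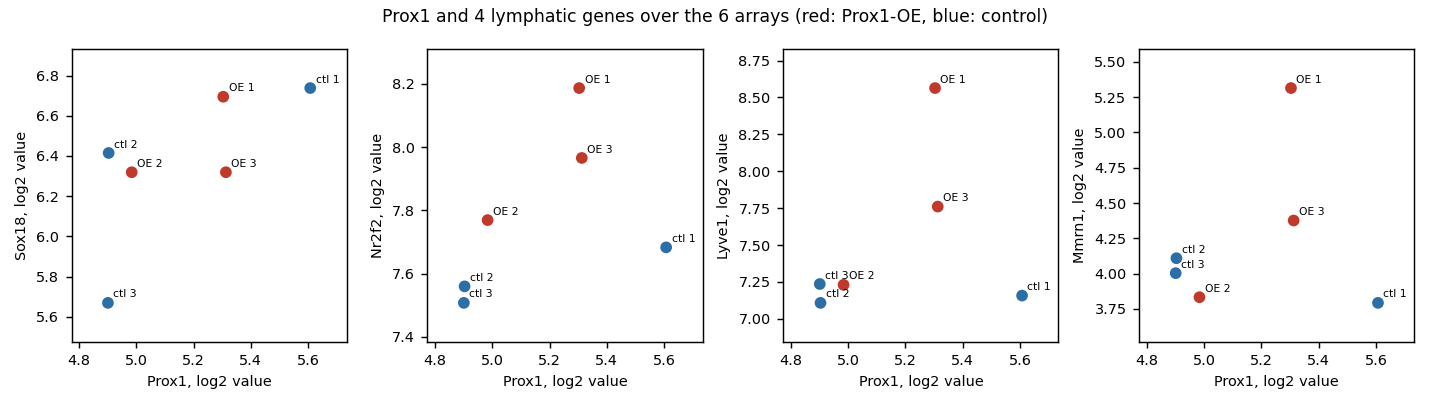
Log2 value of Prox1 (x axis, brightest probe set) against those of Sox18, Nr2f2, Lyve1 and Mmrn1 (y axes) on the 6 arrays (red, Prox1-OE; blue, control). Control replicate 1 has the highest Prox1 value (5.61) and low values of Lyve1 (7.16) and Mmrn1 (3.79).

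The genes most like Prox1 in pattern, among 11470 genes above the median of all probe sets, were Mdfic (r = 0.99), Nudt7 (0.99), Rbm5 (0.98), Rbms3 (0.98) and Polg2 (0.98). None of them was in the lymphatic lists used here, and a lymphatic role of these genes was not examined. Rbms3, an RNA-binding protein, read 7.62, 7.48 and 7.68 in Prox1-OE and 7.82, 7.35 and 7.33 in control. The most opposite were Nudcd2 (r = -0.99), Snx20 (-0.98), Afg3l1 (-0.97), Mfsd14b (-0.97) and Mul1 (-0.97). The values of these 10 genes spanned only 0.04 to 0.49 on the log2 scale, and the smallest adjusted p of any gene was 0.936 (exact permutation).

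Of 118 genes of the lists that were not members, 18 had r farther from 0 than any member, and the 6 with the largest were chosen after their values were seen. Hhex, a homeobox factor of endothelial progenitors, ducts and delta cells, had r = 0.95 (exact permutation p = 0.0139, rho = 0.77 with p = 0.103), and Fgfr3, a growth factor receptor reported as a Prox1 target in lymphatic endothelial cells, had r = 0.93 (exact permutation p = 0.00278, rho = 0.94 with p = 0.0167). The lists gave the role of reported target to only 3 genes, and not to Flt4 (r = -0.20), which Prox1 also supports. The other 2 of these 3 genes had r closer to 0. These were Cyp7a1, an enzyme of bile acid synthesis, with r = 0.28 (exact permutation p = 0.622, rho = 0.14 with p = 0.803) and Ccne1, which encodes cyclin E1, with r = 0.25 (exact permutation p = 0.688, rho = -0.37 with p = 0.497). Msln, a surface protein of mesothelium, had r = -0.90 (exact permutation p = 0.0125, rho = -0.83 with p = 0.0583), and Lrrn4, a further mesothelial marker, had r = -0.88 (exact permutation p = 0.00694, rho = -0.94 with p = 0.0167). Piezo1, a mechanosensitive channel, had r = 0.88 (exact permutation p = 0.0125, rho = 0.83 with p = 0.0583). Sst, the somatostatin gene of delta cells, had r = 0.87 (exact permutation p = 0.0236, rho = 0.94 with p = 0.0167). The adjusted p by Pearson was 0.999 for each of these genes (exact permutation). Fgfr3 read 7.71, 7.62 and 7.70 in Prox1-OE and 8.09, 7.52 and 7.35 in control, so that, as for Prox1, a control was its highest and a control its lowest array.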

How the data were processed

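Whole pancreas of mice (6 samples) was profiled on Affymetrix 3' expression arrays, from 100 ng of total RNA per the labels' protocols. The log2 probe set values were deposited by the authors. RMA and Partek 6.5 are named in the submitters' processing notes, without settings. RMA sets the arrays to a common distribution (medians 4.38 to 4.42) and compresses differences of dim probe sets.

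Of 45101 probe sets, 64 were controls and were left out of the fits. The platform annotation gave 34958 probe sets 1 symbol, 932 several and 9211 none. The probe set with the highest mean stood for each of 18193 genes. Prox1-OE and control (3 arrays each) were compared with limma 3.58.1 (R 4.3.3) by lmFit and eBayes, two-sided, with Benjamini-Hochberg adjustment over all genes at 0.05, and again over 45037 probe sets. No gene was filtered out. The fit and the permutation test were tested on simulated data. Correlations with Prox1 used exact permutation in Python 3.11.15 with NumPy 2.4.6.

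The members and all gene lists were chosen with earlier results of these data known. Named genes were every member, the 5 most and 5 least correlated with Prox1, and up to 3 list members (6 of the lymphatic list) with the smallest p. Others are named for their role or were chosen after their values were seen. The latter include Hhex, Fgfr3, Msln, Lrrn4, Wt1, Piezo1, Sst, Pecam1, Stab2, Sox17, Pax5, Cd79a, Blk, C1qa and the genes sharing the array order of Lyve1. Nothing in the labels says whether replicates came from separate animals, so p-values measure the spread between these samples. The number of arrays limits precision. Alternatives covered probe set choice, a filter on dim genes, normalization, the variance model, array weights, a replicate block, a B cell covariate and leaving out each array.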

Additional observations from a re-analysis of the deposited data

How the results depend on the processing

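Of 148 differences of members under other settings, 137 kept their sign, and no member and no member probe set passed the threshold under any setting run. With the B cell covariate the difference was -0.074 for Prox1, -0.0052 for Sox18, -0.17 for Foxc2, -0.17 for Flt4, -0.23 for Reln and -0.21 for Mmrn1. When 1 array was left out the differences ranged from -0.055 to 0.30 for Prox1, -0.13 to 0.40 for Sox18, -0.038 to 0.23 for Foxc2 and -0.036 to 0.25 for Flt4. Genes called over the whole table were 0 with the B cell covariate, 2 with the replicate block and 0 to 4 when 1 array was left out (0 without Prox1-OE replicate 1 or 3, 1 without control replicate 1 or 2, 3 without Prox1-OE replicate 2), against 5. The cause was not tested. With the block, 0 members passed, so it changed no call of a member. Same-numbered arrays had deviation correlations of 0.04, 0.14 and 0.11, and each array correlated best with its own number, a hint from the data and not from the design. They were not treated as pairs.

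Of 99 correlations with Prox1 under other settings, 24 changed sign. With probe set 1457432_at, 2 of 9 members had positive r, and r was -0.32 for Nr2f2, -0.87 for Sox18, -0.21 for Vegfc, 0.34 for Flt4, -0.13 for Lyve1, 0.35 for Pdpn, -0.049 for Reln and -0.16 for Mmrn1. With 1421336_at it was 0.70 for Foxc2 and 0.19 for Flt4. Without the 2 arrays farthest from the Prox1 median it was 0.47 for Foxc2, 0.61 for Flt4 and 0.20 for Pdpn. With the mean of all probe sets it was -0.038 for Sox18, 0.18 for Flt4, 0.18 for Pdpn and -0.019 for Mmrn1. When 1 array was left out, r ranged from -0.071 to 0.79 for Reln, -0.11 to 0.76 for Mmrn1, -0.51 to 0.24 for Pdpn, -0.28 to 0.54 for Foxc2 and -0.70 to 0.41 for Flt4, and 4 to 9 members had positive r. Foxc2 (percentile 9.76 of all probe sets) and the dimmer probe sets of Reln and Mmrn1 (percentiles 2.16 and 1.64) read near the floor of the arrays, which limits what they can show.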
